A study of Mus musculus with 4 samples.

Results

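The secreted Wnt inhibitors Wif1, Sfrp1, Sfrp2, Sfrp4, Sfrp5, Frzb, Dkk2 and Dkk3 were followed in mammary tumors of St6gal1 null and wild-type mice. They are 8 of 18193 genes that the array reads under a single symbol. Every probe set whose annotated symbol was exactly 1 of the 8 names was taken, which gave 15 of 45037 probe sets. A probe set is a group of short oligonucleotides that read 1 transcript. The 8 genes were chosen by the signals of null over wild-type pools in these same arrays, in which Wif1 and Sfrp1 read lower in null tumors. The values of null over wild type are therefore given as a description, and no test of that contrast is reported for them.

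The 4 arrays each held RNA of a pool of 3 mammary tumors from 3 female C57BL/6 mice. All mice carried PyV-mT, a transgene of the polyoma virus middle T oncogene under which mammary tumors form. Pools came from St6gal1-/- animals or their wild-type littermates, 2 pools of each, taken 14 days after tumors appeared from animals 110 days old. 1 null and 1 wild-type pool formed a first set and the other pair a second set, and ratios were taken within a set. St6gal1 encodes the sialyltransferase that adds alpha2-6-linked sialic acid to N-glycans. The study compared transcripts of tumors with and without this enzyme. The sources used here do not name the promoter of the transgene or the part of St6gal1 that the null allele lacks. Pooling averages 3 animals on each array, so the spread between animals was not measured.

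Wnt proteins are secreted signals that bind Frizzled receptors and the coreceptors Lrp5 and Lrp6, which stabilises beta-catenin and lets it act with Tcf and Lef factors on target genes. Secreted inhibitors act outside the cell at different points. Wif1 and the secreted Frizzled-related proteins, among them Sfrp1, Sfrp2, Sfrp4, Sfrp5 and Frzb, bind Wnt ligands, and Dkk2 binds the coreceptors. Dkk3 is grouped with the Dickkopf family by sequence, although its action on Wnt signalling is less clear. In the mammary gland Wnt signals are known for their part in branching and in keeping basal stem cells.

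Array medians lay between 588 and 619. The 3'/5' signal ratio of a control is a sign of RNA integrity and labelling. For Gapdh it was 0.873 (null) and 0.869 (wild type) in set 1, and 2.13 and 1.57 in set 2. For beta-actin it was 1.53 (null) and 1.63 (wild type) in set 1, and 2.12 and 1.96 in set 2. Probe sets of Y-linked genes, which female animals lack, read at most 565, and signals up to that level were taken as unspecific. The brighter probe set of St6gal1 itself read 2337 and 3642 in the null pools and 2330 and 2796 in the wild-type pools, so the targeted gene gave no check of the labels, on which all directions here rest. All 9 luminal epithelial markers with a probe set, such as Krt8 and Cdh1, read above the unspecific level.

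RefSeq promoter windows (GRCm38.p6) were at hand for 5 of the 8 genes: Wif1, Sfrp2, Sfrp5, Frzb and Dkk2. The 250 bases before the listed start are shown for Wif1, Frzb and Dkk2, whose windows held a motif marked below. Wif1 and Frzb read lower in the null pools, as did Sfrp2, whose window is not shown. Dkk2 read higher there, with only 1 of 4 arrays above the unspecific level. Capitals mark the letters CTTTGA or CTTTGT, both forms of the core that Tcf and Lef factors are known to bind, and TATAAA, the TATA box letters, each on either strand. The windows lie at chr10:121033754-121034003 on the plus strand for Wif1, chr2:80447397-80447646 on the minus strand for Frzb and chr3:132085042-132085291 on the plus strand for Dkk2.
Wif1: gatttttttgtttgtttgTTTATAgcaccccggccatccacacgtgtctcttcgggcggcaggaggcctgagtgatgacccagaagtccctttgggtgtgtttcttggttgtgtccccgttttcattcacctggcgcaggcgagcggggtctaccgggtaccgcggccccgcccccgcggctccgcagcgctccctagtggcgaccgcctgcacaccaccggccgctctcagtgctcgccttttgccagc
Frzb: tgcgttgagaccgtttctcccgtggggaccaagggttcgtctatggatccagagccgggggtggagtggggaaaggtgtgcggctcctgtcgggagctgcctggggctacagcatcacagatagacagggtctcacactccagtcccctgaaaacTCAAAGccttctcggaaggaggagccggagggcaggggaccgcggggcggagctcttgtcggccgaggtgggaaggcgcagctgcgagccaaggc
Dkk2: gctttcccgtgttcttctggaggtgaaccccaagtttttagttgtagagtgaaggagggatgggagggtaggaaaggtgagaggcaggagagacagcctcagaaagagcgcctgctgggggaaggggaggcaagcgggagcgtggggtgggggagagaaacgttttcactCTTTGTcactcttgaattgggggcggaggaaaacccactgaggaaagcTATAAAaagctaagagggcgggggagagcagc

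The Frzb window held CTTTGA on the reverse strand, 95 to 90 bases before the start. The Dkk2 window held CTTTGT 80 to 75 bases and TATAAA 32 to 27 bases before the start, both on the forward strand. In the Wif1 window the only match was TATAAA on the reverse strand, 232 to 227 bases before the start. The windows of Sfrp2 and Sfrp5 held none of the 3 motifs. Of 32851 windows of this length, 13.8% held CTTTGA, 16.5% CTTTGT and 12.4% TATAAA on either strand, so such matches are not rare. The dinucleotide CG occurred 21 times in the Wif1 window, 16 times each in those of Frzb and Sfrp2, 13 times for Sfrp5 and 7 times for Dkk2, against a median of 6 over all windows. These are descriptions of letters and name no bound site.

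Wif1 had the most negative mean ratio among the 8 genes, on its single probe set, and the value was nearly the same in both sets. It read 651 and 671 in the null pools of sets 1 and 2, against 2390 and 2458 in the wild-type pools. Both null arrays lay below both wild-type arrays, and the 4 values were above the unspecific level, the null ones only just. On the scale log2(signal + 44), used for all ratios here, the null pools were lower by 3.50-fold in each set. The mean log2 ratio was -1.81 ± 0.23 (limma SE, n = 2 pools per genotype). Each SE given here rests largely on limma's spread pooled over probe sets (13 prior degrees of freedom, 1 residual), not on these pools alone.

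Sfrp1 was read by 5 probe sets, and all 5 were lower in the null pool of both sets, by unequal amounts. The brightest, 1428136_at, read 8576 and 13123 in the null pools against 14643 and 20636 in the wild-type pools. That was a log2 ratio of -0.77 in set 1 and -0.65 in set 2, or 1.64-fold lower on average. The largest difference was on 1460187_at, with 3198 and 1211 in the null pools against 7927 and 3480 in the wild-type pools. Its mean log2 ratio was -1.39 ± 0.14, or 2.63-fold lower. On both of these probe sets the null arrays lay below the wild-type arrays without overlap.

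Of the other Sfrp1 probe sets, 1 lay between these and 2 had smaller differences. 1448395_at read 7034 and 5728 in the null pools against 14150 and 12444 in the wild-type pools, a mean log2 ratio of -1.06 ± 0.10. For 1438620_x_at the signals were 4738 and 3463 against 6909 and 4839, with a mean log2 ratio of -0.51 ± 0.12. The suffix _x_at marks probes that may also bind other transcripts, so that value is uncertain. The probe set 1416594_at read 1956 and 1219 against 3814 and 1456, and here the groups overlapped, because the set 1 null value exceeded the set 2 wild-type value. The log2 ratio for this probe set was -0.95 in set 1 and -0.25 in set 2. The median over the 5 probe sets was -0.71.

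Sfrp2 and Frzb, 2 further Frizzled-related proteins, also read lower in both null pools, by smaller amounts than Wif1. Sfrp2 read 4565 and 3618 in the null pools against 6648 and 5592 in the wild-type pools, a mean log2 ratio of -0.58 ± 0.11 (1.49-fold lower), without overlap. The brighter Frzb probe set read 1258 and 1027 against 1828 and 1800, a mean log2 ratio of -0.65 ± 0.22 (1.57-fold lower). Its null arrays were both below both wild-type arrays. The dimmer Frzb probe set, 1448424_at, lay within the unspecific level on all 4 arrays, between 255 and 470. Its signal was therefore not told from unspecific signal.

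Sfrp4 and Dkk2 lay on the other side, higher in both null pools. Sfrp4 read 1920 and 2929 in the null pools against 1341 and 1563 in the wild-type pools, a mean log2 ratio of 0.70 ± 0.19 (1.62-fold higher), without overlap. Dkk2 read 456 and 581 against 163 and 149. The groups did not overlap, but only the null pool of set 2 was above the unspecific level, so no fold is given for Dkk2.

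Sfrp5 had opposite directions in the sets. Its brighter probe set, 1436075_at, read 283 (null) against 963 (wild type) in set 1, and 1261 (null) against 426 (wild type) in set 2. The log2 ratio was -1.62 in set 1 and 1.47 in set 2, and the mean of -0.07 ± 0.54 stands for neither. Only the wild-type pool of set 1 and the null pool of set 2 were above the unspecific level. The dimmer probe set, 1423023_at, was within that level on all arrays, with the same 2 pools highest, 482 and 321 against 102 and 113. Ratios past 1 in size and opposite in the sets were found for 2.48% of all 45037 probe sets.

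Dkk3 differed little between the genotypes. Its probe set 1417312_at read 1422 and 1300 in the null pools and 1265 and 1224 in the wild-type pools, a mean log2 ratio of 0.12 ± 0.23. The other, 1448669_at, read 1377 and 2682 against 1609 and 2448, with a mean of -0.04 ± 0.18 and opposite signs in the sets. Both means are given with limma's SE as a description, not as a test.

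**Figure D1:**
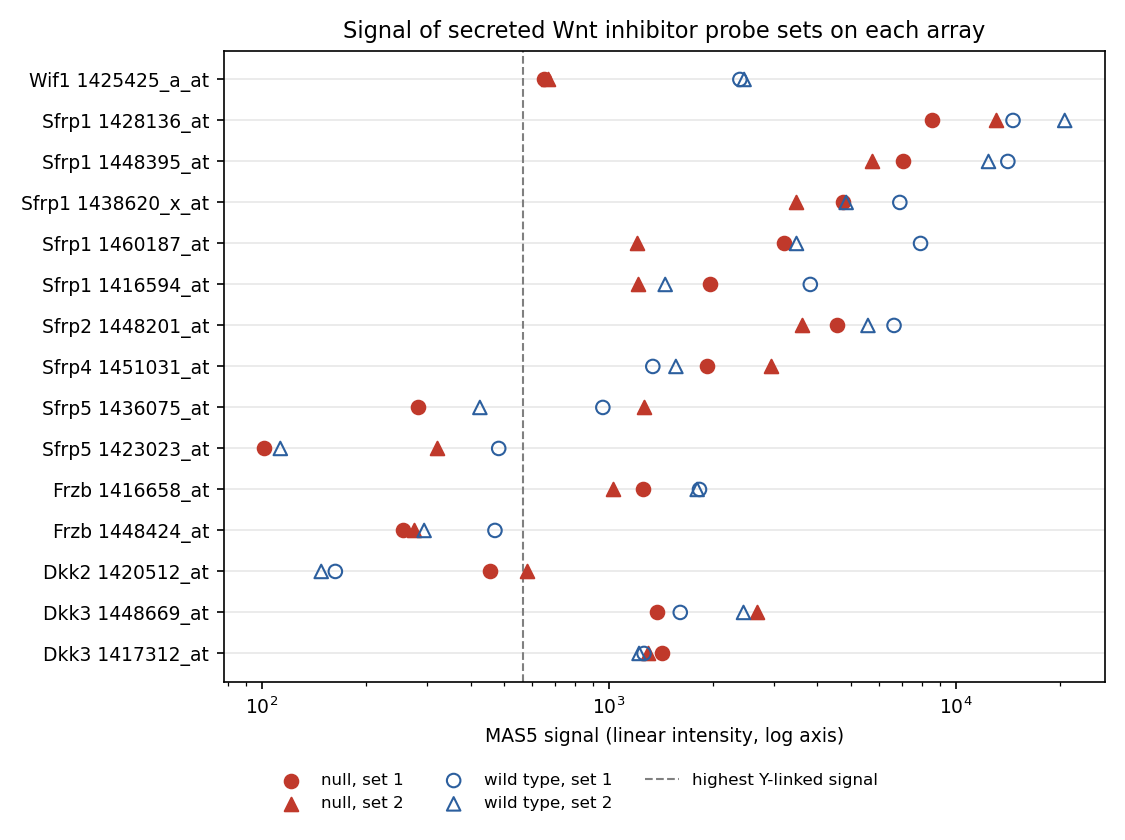
MAS5 signal (linear intensity on a log axis) of the 15 probe sets of the secreted Wnt inhibitors, filled red for null and open blue for wild-type pools, circles for set 1 and triangles for set 2. The dashed line is the unspecific level of 565, and the null pools of Wif1 sit at 651 and 671 against 2390 and 2458 in the wild-type pools.

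Over the 15 probe sets, 9 were lower in both sets, 3 were higher in both and 3 changed direction between sets, where 30.4%, 27.1% and 42.5% of all 45037 probe sets did so. Both null arrays lay below both wild-type arrays for 8 of the 15, against 16.6% of all probe sets, and above them for 3, against 15.8%. The median log2 ratio was -0.51 over the 15 probe sets and -0.02 over all. Since 5 of the 15 read Sfrp1, these counts are not independent, and since the genes were proposed from this contrast nothing is read from them. The 12 probe sets that passed the filter on low signals (a mean over the 4 arrays at or above the median of these means) covered 7 genes. The filter left out Dkk2 and the dimmer probe sets of Sfrp5 and Frzb.

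**Figure D2:**
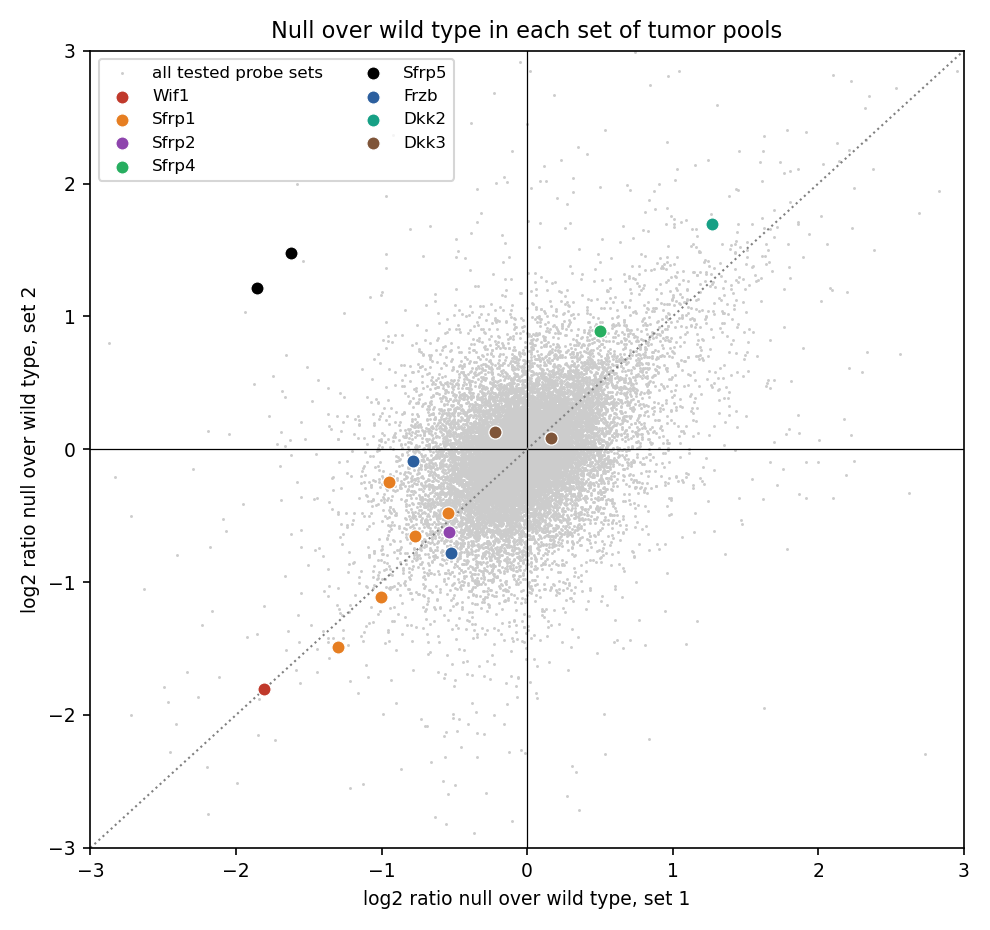
Log2 ratio of null over wild type in set 1 (horizontal) and set 2 (vertical) for the 15 probe sets of the secreted Wnt inhibitors, coloured by gene, over all 22519 tested probe sets in grey, of which 23 lie outside the axes. Wif1 sits on the dotted line of equal ratios at -1.81, and the Sfrp5 probe sets lie in the upper left, negative in set 1 and positive in set 2.

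Markers of several cell types also moved with genotype. For markers, rose and fell stand for limma's calls in the fit with the set and an intensity trend. Without the set, or without the trend, limma called 0 of all probe sets. Of 10 fibroblast markers 10 rose in the null pools (median log2 ratio 1.24), and their summed signal was 342129 and 385844 in the null against 161003 and 164501 in the wild-type pools. Of 11 basal and myoepithelial markers 6 fell and 0 rose (median -0.53), with sums of 119717 and 139966 against 156592 and 172663. Krt5 and Myh11 fell by 0.53 and 0.78 on the log2 scale, while Krt17 was at 0.47 ± 0.26 and did not pass. Of 5 tested adipocyte markers 4 rose (median 1.41), with sums of 60999 and 53811 against 24710 and 22039. All fibroblast and basal markers read above the unspecific level on at least 1 array, and of the adipocyte markers Lep did not. The part of these marker shifts in the values of Wif1, Sfrp1, Sfrp2, Frzb, Sfrp4 and Dkk2 was not tested. In bulk RNA, fewer cells of a type and less RNA per cell cannot be told apart.

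Of the remaining marker lists, 2 of 9 luminal epithelial markers rose and 0 fell, with a median log2 ratio of -0.08. Of 5 tested endothelial markers 1 rose (median 0.67) and of 5 macrophage markers 2 rose (median 0.15). Of 6 skeletal muscle markers 2 rose (median 0.90), with 0 lower in each of these lists. Among the muscle markers that rose, Ckm read 1083 and 1157 in the null against 219.6 and 478.5 in the wild-type pools. Both wild-type values lay within the unspecific level, and Ckm passed the filter only through the null pools. By gene, limma called 5.18% higher and 3.59% lower over all 11514 tested genes, with 1 probe set per gene, the brightest.

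The sets themselves offered a contrast that had not been used to choose the genes. Between the second and the first set, limma's test with genotype as a term passed 5 of the 12 tested probe sets, 2 higher and 3 lower in the second set, against 23.6% of all tested probe sets, 11.1% higher and 12.5% lower. Without the intensity trend it passed 0 of the 12, with 5 at an unadjusted p under 0.05. Of the 5 passed with the trend, 4 read Sfrp1, and they went different ways. The probe set 1428136_at rose by a log2 ratio of 0.55 ± 0.09 (adjusted p = 5.6e-04), by 0.61 for null and 0.49 for wild-type pools. The probe set 1460187_at fell by 1.27 (SE 0.14, adjusted p = 2.45e-05), with -1.37 for null and -1.18 for wild-type pools. 1416594_at and 1438620_x_at fell by 1.01 and 0.48 (adjusted p = 0.00273 and 0.00821), and 1448395_at was at -0.24 ± 0.10 (adjusted p = 0.084).

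Sfrp1 was thus not measured alike by its probe sets across the sets, while all of them read lower in the null pool within each set. Called probe sets in both directions between the sets were found for 21.7% of the 286 genes with at least 5 tested probe sets. The Gapdh 3'/5' ratio was 2.13 and 1.57 in set 2 against 0.873 and 0.869 in set 1. That of beta-actin was 2.12 and 1.96 in set 2 against 1.53 and 1.63 in set 1. In set 2 both ratios were also higher for the null than for the wild-type pool. The part of RNA integrity and labelling in the differences between the sets, and in the ratios within set 2, was not tested. For Dkk3, 1448669_at rose by 0.77 ± 0.18 (adjusted p = 0.00836), and 1417312_at was at -0.09 ± 0.23 (adjusted p = 0.822). Wif1 was at 0.04 ± 0.23 between the sets (adjusted p = 0.922), with 0.04 for null and for wild-type pools alike. Frzb was at -0.15 ± 0.22, Sfrp2 at -0.29 ± 0.11, Sfrp4 at 0.41 ± 0.19 and Sfrp5 at 0.45 ± 0.54, with adjusted p of 0.655, 0.0808, 0.141 and 0.596. The Sfrp5 value joins pools that went opposite ways, 2.00 for null and -1.10 for wild-type pools. The sources used here do not say what differs between the sets other than the animals. With 1 pool of each genotype in a set, p-values rest on 1 residual degree of freedom and limma's pooled spread.

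**Figure D3:**
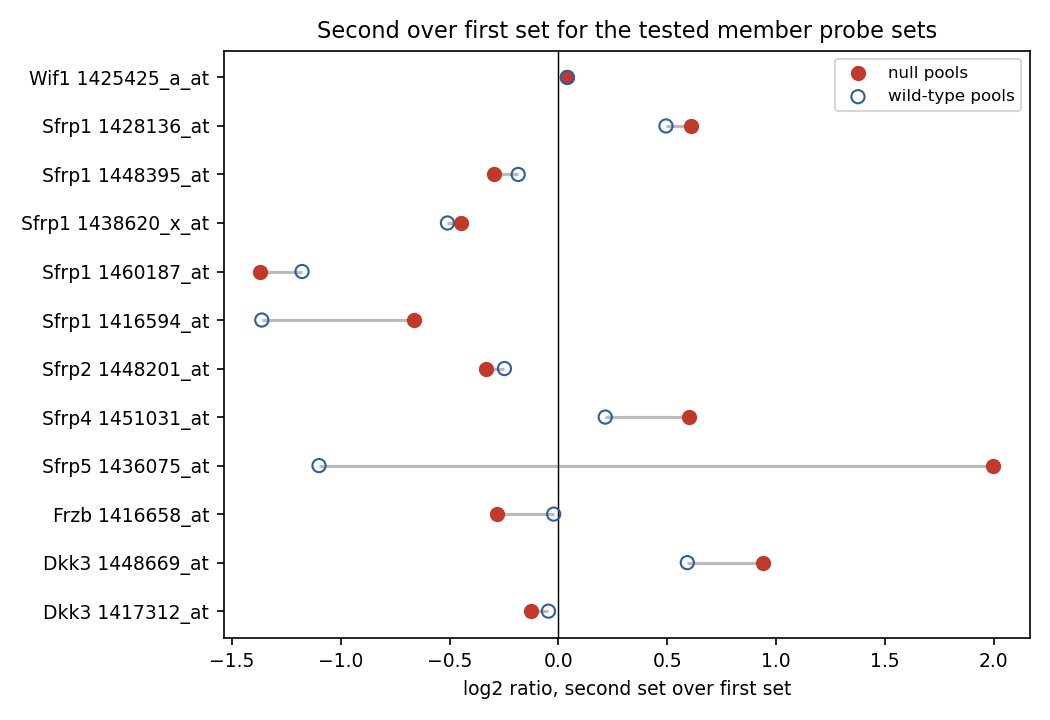
Log2 ratio of the second over the first set for the 12 tested probe sets of the secreted Wnt inhibitors, red for null and open blue for wild-type pools, joined by a line. The Sfrp1 probe sets 1428136_at (0.61 and 0.49) and 1460187_at (-1.37 and -1.18) lie on opposite sides of 0, and Sfrp5 runs from 2.00 to -1.10.

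The rest of the Wnt pathway was read from 93 genes in 6 lists by role, of which 91 had a probe set of their own and 61 passed the filter. Of the 61, limma called 7 higher and 9 lower in the null pools, against 5.18% higher and 3.59% lower of all tested genes. Their median log2 ratio was -0.13, beside -0.01 over all genes tested. The part of the cell type marker shifts in these calls was not tested. These calls rest on the set as a term and on the intensity trend. Without the set limma called 0 of the 61, with 9 at an unadjusted p under 0.05, and without the trend 0, with 19 unadjusted.

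Ligands did not pass: of 6 tested of 19, 0 rose and 0 fell (median 0.03), and 10 of the 19, Wnt10b and Wnt3 among them, read within the unspecific level on every array. Wnt9a was at 0.98 with an adjusted p of 0.0512 and Wnt7b at -0.68 with an adjusted p of 0.102 in limma. Among genes of ligand release and agonist receptors, 1 of 6 fell: Lgr6, a receptor for the R-spondin agonists, fell by 0.34 (adjusted p = 0.047), while its second tested probe set had an adjusted p of 0.916. Of 15 receptors 1 rose and 2 fell. Fzd4 and Fzd7, which are Frizzled receptors, fell by 0.58 and 0.43 (adjusted p = 0.0142 and 0.022), and Fzd1 rose by 0.42 (adjusted p = 0.0261). The second probe set of Fzd4 did not pass (adjusted p = 0.858). The coreceptors Lrp5 and Lrp6 were at -0.03 and -0.19 and did not pass.

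Other inhibitors outside the cell or in its membrane also went both ways, as 3 of 9 rose and 3 fell. Sostdc1, a secreted antagonist that binds Lrp6, read 882 and 829 in the null against 1749 and 2203 in the wild-type pools, without overlap. It fell by 1.16 (SE 0.23, adjusted p = 0.00655). Trabd2b, a protease that inactivates Wnt ligands, fell by 0.57, and Dkkl1, a relative of the Dickkopf proteins, by 0.42. Apcdd1, a membrane inhibitor, read 1783 and 1983 against 648 and 814 on its brightest probe set, an _x_at set, and rose by 1.32 (SE 0.24, adjusted p = 0.00333). Its 3 other tested probe sets did not pass, with adjusted p from 0.403 to 0.747. Serpinf1 and Igfbp4, secreted proteins with several functions, rose by 0.46 and 0.38, and of 6 tested Igfbp4 probe sets 2 passed. The second tested probe sets of Serpinf1 and Trabd2b did not pass (adjusted p = 0.284 and 0.743). Dkk1, Dkk4, Sost and Notum read within the unspecific level on every array.

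Of 16 intracellular genes 0 rose and 3 fell, with a median log2 ratio of -0.19. Tcf7l2, a transcription factor that carries the beta-catenin signal, fell by 1.25 (SE 0.24, adjusted p = 0.00404), with a log2 ratio of -0.47 in set 1 and -2.03 in set 2. Its other 2 tested probe sets passed in the same direction, with adjusted p of 0.0207 and 0.0152. Tle1, a corepressor, fell by 0.72, and Gsk3b, a kinase of the complex that marks beta-catenin for destruction, fell by 0.38 on its brightest probe set (adjusted p = 0.0426). The 5 other tested probe sets of Gsk3b, and the second of Tle1 (adjusted p = 0.84), did not pass. Ctnnb1, beta-catenin itself, was at 0.13 and did not pass.

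Among genes known as Wnt targets 3 of 9 rose and 0 fell. Tnfrsf19 rose by 0.90 (adjusted p = 6.14e-04). Ccnd1, cyclin D1, rose by 0.54 (adjusted p = 7.75e-04), with 2 of its 3 tested probe sets passing, while the second of Tnfrsf19 did not pass (adjusted p = 0.0984). Twist1, a mesenchymal transcription factor, read 987 and 1511 in the null pools against 545 and 408 in the wild-type pools, both of these within the unspecific level. On the mean over the sets it rose at least 2.08-fold, the mean log2 signal of the null pools against that level. This leaves out their spread and is no bound for each set (adjusted p = 0.0313 in limma's fit of the measured signals). Twist1 passed the filter only through the null pools. Twist1 is known to be made by fibroblasts, whose 10 markers also rose, and that part was not tested. Axin2, a feedback inhibitor widely used as a readout of the pathway, was below the filter, with 603 and 582 for null against 432 and 520 for wild-type pools, close to the unspecific level of 565. Myc was at -0.28 and Cd44 at -0.17, and neither passed.

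**Figure D4:**
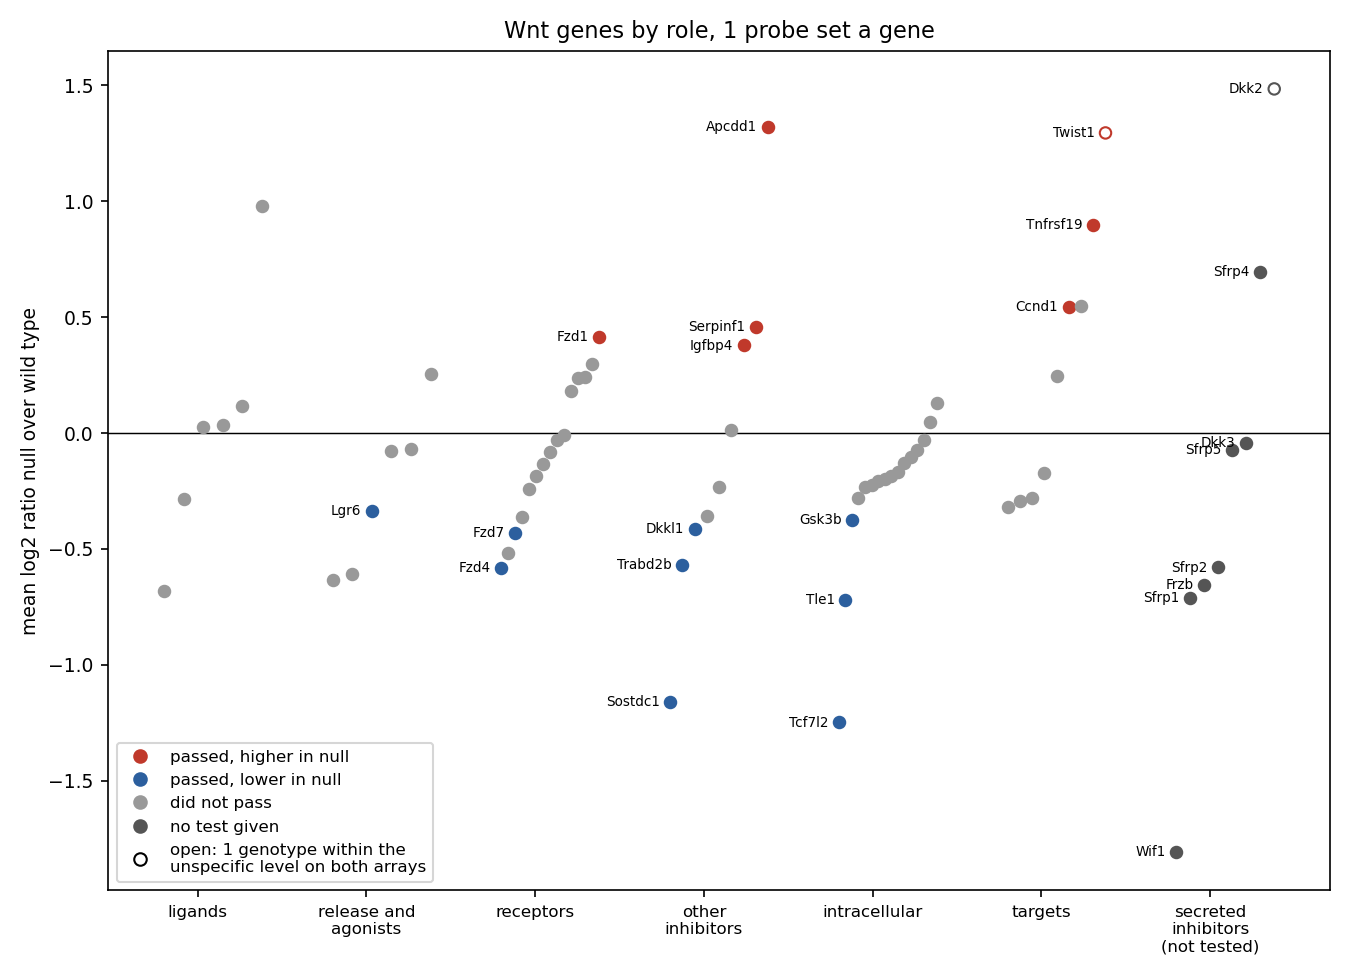
Mean log2 ratio of null over wild type for the 61 tested Wnt genes by role, 1 probe set a gene, red for genes that passed higher (7) and blue for those that passed lower (9) in limma, grey for the rest. The dark points on the right are the 8 secreted inhibitors by their brightest probe set, with no test. They run from Wif1 at -1.81 to Sfrp4 at 0.70, with the open point of Dkk2 drawn above Sfrp4. Open points, Dkk2 and Twist1, had 1 genotype within the unspecific level on both arrays, so their height is no measured fold.

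Genes with a pattern like that of Wif1 over the 4 arrays were sought by the Euclidean distance of log2 signals, each centred on its mean. The nearest were Ankrd9 (distance 0.18), Slpi (0.19) and S100a8 (0.21), each with 1 tested probe set. Slpi, a secreted protease inhibitor, read 14392 and 14903 in the null against 43423 and 47368 in the wild-type pools. S100a8, a subunit of the neutrophil protein calprotectin, read 9956 and 8818 against 35879 and 32530, and Ankrd9 read 301 and 278 against 976 and 1043. The null values of Ankrd9 lie within the unspecific level, so its distance rests in part on signal not told from it. For the brightest Sfrp1 probe set the nearest were Dmrta2, Lipa and Fxyd2, at distances of 0.08, 0.09 and 0.10. Lipa and Fxyd2 each had 2 other tested probe sets. The other Sfrp1 probe sets did not rise in the second set as this one did, so the likeness is that of 1 probe set. Within a distance of 0.5 there were 16 tested probe sets for Wif1 and 783 for Sfrp1. With 4 arrays such likeness is a description only.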

How the data were processed

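Each of the 4 arrays (Affymetrix mouse expression arrays, 1 colour) held biotinylated RNA of 1 pool of tumors. The deposited values were linear intensities, made by the authors with MAS5 per the submitters' processing notes (version not given in the sources used here). The trimmed mean, without the lowest and highest 2%, was 2500.01 on every array, and no further scaling was done. Of 45101 probe sets, 64 controls were left out. The platform annotation, which can be old, gave 1 symbol for 34945 of the rest, several for 932 and none for 9160, and only probe sets with 1 symbol were named. All 8 members matched a gene of the RefSeq table (GRCm38.p6) by identifier and symbol. The files name no genome build, so coordinates are those of the RefSeq windows alone. No column stayed unmapped (0).

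Intensities were turned into log2(value + 44), 44 being the 10th percentile of all values, which understates changes of dim genes. Limma 3.58.1 (R 4.3.3; lmFit, eBayes with intensity trend) was fitted to 22519 probe sets with set and genotype as terms, with Benjamini-Hochberg adjustment over all of them and a threshold of 0.05. The pairing comes from the series' design text, which compares 1 null with 1 wild-type pool in each set, and the correlation of deviations within sets was 0.605, equal for both by construction. There was 1 residual degree of freedom, beside 13 prior ones from eBayes. With 4 arrays, their number limits the precision of every value. The members, lists and the rule for naming (all members, up to 3 genes per list and direction, the 3 nearest patterns) were chosen with earlier results of these data known. Further list genes named with values were chosen after these were seen. Alternatives were quantile normalization, other pseudocounts, no filter, no set term, no trend and leaving out each array.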

Additional observations from a re-analysis of the deposited data

Results flagged for a closer look

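Sfrp5 went opposite ways in the sets, which was not tested, since no residual spread is left for such a term. Its probe set 1436075_at had a log2 ratio of null over wild type of -1.62 in set 1 and 1.47 in set 2. In each set the lower signal lay within the unspecific level, 283 for null in set 1 and 426 for wild type in set 2. The dimmer 1423023_at had -1.85 and 1.22, from signals within the unspecific level. The Dkk3 probe set 1448669_at had -0.22 in set 1 and 0.13 in set 2, also untested. Of all 45037 probe sets, 42.5% had opposite signs in the sets.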

How the results depend on the processing

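With the replicate block (the set) left out of the fit, limma called 0 of all probe sets (1280 with an unadjusted p below 0.05) and 0 of the Wnt list genes (9 unadjusted). Without the intensity trend it called 0 of all probe sets (3486 unadjusted), 0 Wnt list genes (19 unadjusted) and 0 of the 12 member probe sets between the sets (5 unadjusted). With 1 array left out and no replicate block, chosen after seeing the data, it called 4, 8, 19 and 27 of all probe sets and 0 to 1 of the Wnt list genes. With the block kept, leaving out an array leaves no residual degree of freedom, so only the ratio of the other set could be given. The counts of 1645 probe sets, 16 Wnt list genes and 5 member probe sets stayed within 1.5 times under quantile normalization, pseudocounts of 1 and 176, and no filter. The signs of all 15 mean member ratios were kept under quantile normalization and both pseudocounts, and 12 of 15 kept their sign in each set alone. The size of the Wif1 ratio moved from -1.81 to -1.77 under quantile normalization. It was -1.87 with a pseudocount of 1 and -1.64 with 176. The median over the 15 was -0.77 in set 1 alone and -0.25 in set 2 alone. Signals within the unspecific level limit Dkk2, Sfrp5 and the dimmer Frzb probe set.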
